A study of Mus musculus with 12 samples.

Results

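The genes described here encode proteins of the mitochondrial ribosome. They were taken by symbol, as every entry written Mrpl or Mrps followed by a number and nothing else, which gave 74 genes of the 24062 entries in the deposited tables, 48 with Mrpl symbols and 26 with Mrps symbols. All 74 were above 0 in every library and all 74 entered each test. The symbols Mrps18a, Mrps18b and Mrps18c end in a letter and are therefore not among them. The RNA came from a mouse microglial line, BV2, which is immortalised and was sorted by flow cytometry. In the knockdown experiment, 3 libraries came from cells given a short hairpin RNA against Spi1 and 3 from cells given a scrambled control. In the overexpression experiment, 3 came from cells given a mouse Spi1 cDNA and 3 from cells with the empty control. Spi1 encodes PU.1, an ETS-family transcription factor of macrophages, and the study asked how its level shapes microglial expression. Delivery was transient in both experiments, the cells were not stimulated, and the 4 groups share the line and the sort. No time after delivery and no culture of origin is given in the sources used here, so p-values measure the spread between libraries, which may be technical.

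The mitochondrial ribosome makes the few proteins that mitochondrial DNA encodes, all of them subunits of the respiratory chain and ATP synthase. Its RNAs come from the mitochondrial genome, but every one of its proteins is encoded in the nucleus, made in the cytosol and imported. Many of these proteins have a counterpart in the bacterial ribosome, and others were added in the mitochondrial lineage and are called mitochondria-specific. Their genes are widely expressed housekeeping genes. Their promoters are known for sites of ETS factors such as GABP, of NRF1 and of YY1. Among the members, 29 encode large-subunit proteins with a bacterial homologue, 19 large-subunit proteins specific to mitochondria, 15 small-subunit proteins with a bacterial homologue and 9 small-subunit proteins specific to mitochondria. Mrps30 is counted with the large subunit, where its protein sits despite its symbol. Mrps36, whose product is now assigned to the 2-oxoglutarate dehydrogenase complex and not to the ribosome, and Mrpl57, a large-subunit protein long called Mrp63, were put in none of these 4 classes.

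PU.1 belongs to the ETS family, so the promoters of the members were read for ETS letters. A RefSeq window on GRCm38.p6 running from 250 bases before to 50 after the start was at hand for 65 of the 74 members; Mrpl4, Mrpl13, Mrpl15, Mrpl19, Mrpl38, Mrpl54, Mrps28, Mrps34 and Mrps35 had none. The letters CCGGAAG, the kind of site that GABP and many other ETS factors bind, stood on either strand of 21 windows (32.3%), against 20.4% of the 8192 windows of tested genes and 9.12% of all 27025 windows. The letters GAGGAAGT, closer to the site that PU.1 prefers, stood in 1 member window (1.54%), that of Mrps10, against 3.43% of tested genes and 3.28% of all windows. Both motifs hold the GGAA core but cannot be read at the same position. The NRF1 letters GCGCATGCG, which can match both strands 1 base apart, were in 6 windows (9.23%, against 4.30% of tested genes). The YY1 letters AAGATGGCG were in 7 (10.8%, against 3.71%). These are letter matches and do not show binding. Median GC content was 58% in the member windows and 61% in those of all tested genes.

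Shown here are the stretches around the start, from 90 bases before to 20 after, of the 3 members that were both called higher in Spi1 knockdown and hold the ETS letters within this stretch. The letters CCGGAAG are in capitals. They begin 2 bases into the transcribed part of Mrps12, counting the start as base 1, and 11 and 3 bases before the start of Mrps22 and Mrpl33. The stretches are chr7:28741802-28741911 on the minus strand, chr9:98601660-98601769 on the minus strand and chr5:31613861-31613970 on the plus strand, in that order, from RefSeq on GRCm38.p6.
Mrps12: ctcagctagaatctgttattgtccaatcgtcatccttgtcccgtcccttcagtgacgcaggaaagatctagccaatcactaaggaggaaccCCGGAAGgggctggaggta
Mrps22: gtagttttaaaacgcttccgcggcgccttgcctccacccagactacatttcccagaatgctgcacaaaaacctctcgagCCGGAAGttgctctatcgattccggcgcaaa
Mrpl33: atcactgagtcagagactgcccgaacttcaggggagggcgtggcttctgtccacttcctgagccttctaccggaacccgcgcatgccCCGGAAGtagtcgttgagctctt

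Values are FPKM, reads per kilobase of gene per megaread of the library. The libraries held 22.3 to 33.1 megareads, recovered from the steps of the FPKM values, and a member had 219 (Mrps28) to 4099 (Mrpl12) reads in a library, with a median of 1098. Spi1 itself measured 159, 169 and 168 FPKM with the scrambled hairpin against 50.9, 42.4 and 52.3 with the hairpin to Spi1. In the other experiment it was at 158, 117 and 131 FPKM without and at 287, 224 and 206 with the cDNA. Groups did not overlap in either experiment. Macrophage and microglia markers summed to 2269 to 2867 FPKM per library and all 12 of them were present. Marker sums of astrocytes, neurons, fibroblasts, T cells and epithelium stayed at or under 0.311 FPKM, with defining genes such as Aqp4, Snap25, Lum, Cd3e and Epcam at 0 in every library. Of the oligodendrocyte markers Olig2 was at 0 and Cnp alone passed 1 FPKM, at 6.97 to 12.3.

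Mitochondrial ribosomal protein transcripts were of moderate abundance and covered a narrow range. The median member had a mean of 32.2 FPKM over the 12 libraries, which was the 76.4 percentile of all genes tested, whose median was 13.6 FPKM. Of the 74 members, 67 lay between 10 and 100 FPKM, 4 below and 3 above. The highest was Mrpl52, a mitochondria-specific large-subunit protein, at 144 FPKM. It was followed by Mrpl12, the stalk protein that contacts translation factors, at 124 and the mitochondria-specific Mrpl43 at 101. The lowest were Mrps25 at 8.55, Mrpl35 at 8.72 and Mrpl1, of the mobile stalk near the exit site for tRNA, at 9.71. The ratio of highest to lowest was 16.8.

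By class, median FPKM was 44.2 for large-subunit bacterial homologues and 31.1 for large-subunit mitochondria-specific proteins. It was 36.6 for small-subunit bacterial homologues and 22.5 for small-subunit mitochondria-specific proteins, the lowest of the 4 classes. Other genes of mitochondrial translation were lower, with medians of 8.19 FPKM for mitochondrial tRNA synthetases, 10.6 for assembly factors of the mitochondrial ribosome and 13.0 for translation factors. Nuclear-encoded respiratory chain subunits had a median of 94.5 FPKM and cytosolic ribosomal proteins one of 701. Within a group, the median coefficient of variation of a member was 8.08% in the scrambled controls, 7.58% in knockdown, 8.51% in the empty controls and 10% in overexpression.

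**Figure D1:**
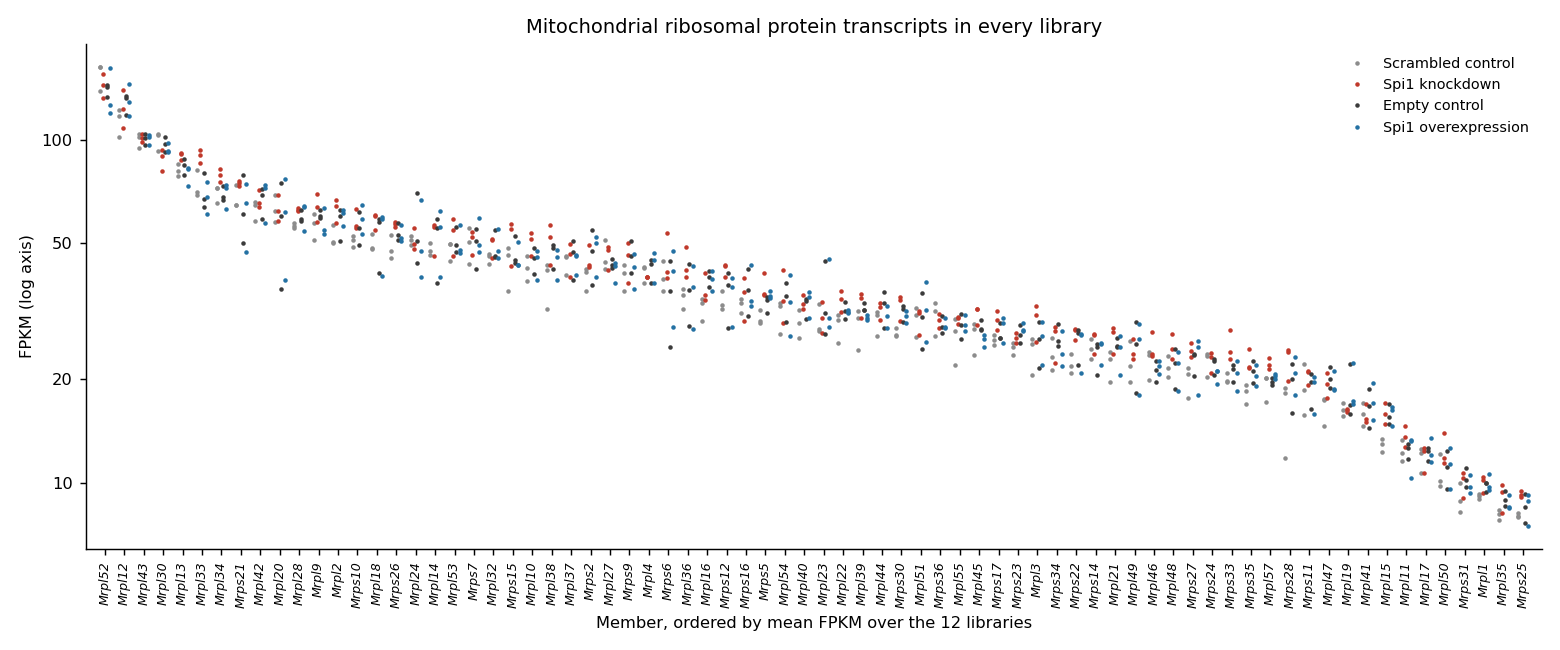
FPKM (log axis) of each of the 74 members in each of the 12 libraries, ordered by the mean over the libraries; each point is 1 library and the colour gives its group. Mean levels run from 144 FPKM for Mrpl52 to 8.55 for Mrps25, and the 4 groups lie close together at every member.

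In Spi1 knockdown 9 members rose and 0 fell, by limma with Benjamini-Hochberg adjustment over all 11214 genes tested and a threshold of 0.05. The 9 are 12.2% of the members, where 17.4% of all genes tested rose, and the 0 stands beside 8.86% of all genes that fell. The increases were small, from 1.20-fold to 1.24-fold. The 9 were Mrps12, Mrps5, Mrps22, Mrps33 and Mrps35 of the small subunit and Mrpl36, Mrpl33, Mrpl15 and Mrps30 of the large. Of the 74 members, 67 had a log2 fold change above 0, with a median of 0.154 against 0.072 over all genes tested. Most members thus had small positive estimates. In bulk RNA a change per cell and a change in the mix of cells cannot be told apart.

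Among small-subunit proteins at the decoding site and the mRNA channel, Mrps12 and Mrps5 rose and Mrps2 and Mrps7 did not pass. Mrps12 (chr7:28739641-28741820), whose bacterial counterpart lines the decoding centre, measured 33.0, 36.2 and 32.0 FPKM in its controls against 42.9, 43.1 and 39.7 after knockdown. The groups did not overlap, and the log2 fold change was 0.31 ± 0.0721 (SE, n = 3 and 3; limma adjusted p = 0.0219). Mrps5 (chr2:127587222-127606829), whose counterpart lies at the mRNA entry, was at 29.3, 29.6 and 31.8 FPKM in the controls and 35.3, 40.8 and 35.5 in knockdown, a log2 fold change of 0.29 (limma adjusted p = 0.0326). Its knockdown library 2 stood above libraries 1 and 3. Mrps2 had a log2 fold change of 0.17 (limma adjusted p = 0.183; 0.0499 with the library number as a block), with knockdown libraries all above the controls, and Mrps7, a protein of the subunit's head, had 0.03 (limma adjusted p = 0.866) with overlapping groups.

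The mitochondria-specific small-subunit proteins held 3 of the calls among their 9 genes (33.3%), beside 17.4% of all genes called higher. All 9 had a positive log2 fold change, with a class median of 0.226, where 7070 of all 11214 genes were positive. With median-of-ratios scaling 1 of the 9 was called higher, beside 11.1% of all genes. With the library number as a block 6 were, beside 30.6%. Mrps22 (chr9:98588730-98601660), in which mutations are known to cause mitochondrial disease in people, was at 20.9, 21.9 and 23.7 FPKM in its controls against 26.1, 28.1 and 27.8 after knockdown. The difference was 0.29 ± 0.0700 on the log2 scale (SE, n = 3 and 3; limma adjusted p = 0.0227) with no overlap. Mrps35 (chr6:147042764-147073991) went from 16.9, 18.5 and 19.2 to 21.6, 21.8 and 24.5 FPKM, a log2 fold change of 0.30 (limma adjusted p = 0.0291). Mrps33 (chr6:39801804-39810988) went from 19.6, 20.9 and 19.8 to 27.9, 24.0 and 22.9 FPKM, a log2 fold change of 0.30 (limma adjusted p = 0.0383), and its knockdown library 1 was the high one. In Mrps33 and Mrps22 the controls were close together and every knockdown library exceeded them. Mrps25, the least abundant member, just missed the threshold at 0.18 (limma adjusted p = 0.0506) and passed it with the block (0.021).

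In the large subunit, 3 of 29 proteins with bacterial homologues (10.3%) and 1 of 19 without (5.26%) rose, beside 17.4% of all genes. Mrpl36 (chr13:73328513-73332178), a very small protein of the core, measured 32.1, 36.7 and 35.3 FPKM in its controls against 39.9, 48.6 and 41.7 after knockdown, a log2 fold change of 0.31 (limma adjusted p = 0.0436). Mrpl33 (chr5:31596935-31664384), another small core protein, was at 68.9, 70.2 and 81.5 against 85.8, 93.4 and 90 FPKM, a log2 fold change of 0.29 (limma adjusted p = 0.0399). Both had groups that did not overlap, although control 3 of Mrpl33 came close to the lowest knockdown library. The RefSeq start of Mrpl33 lies well inside the GENCODE span given here, so the annotations disagree on where the gene begins. The neighbour and overlap counts below used GENCODE. Mrpl15 (chr1:4773206-4785739) went from 12.3, 13.0 and 13.4 to 14.8, 15.9 and 17.1 FPKM, a log2 fold change of 0.28 (limma adjusted p = 0.0291). Mrps30 (chr13:118378381-118387252) went from 26.9, 26.7 and 28.3 to 29.7, 34.1 and 34.8 FPKM, a log2 fold change of 0.26 (limma adjusted p = 0.0469). Another gene, on the other strand, overlaps 9.35% of the exon bases of Mrps30, and the kit does not mark strand.

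**Figure D2:**
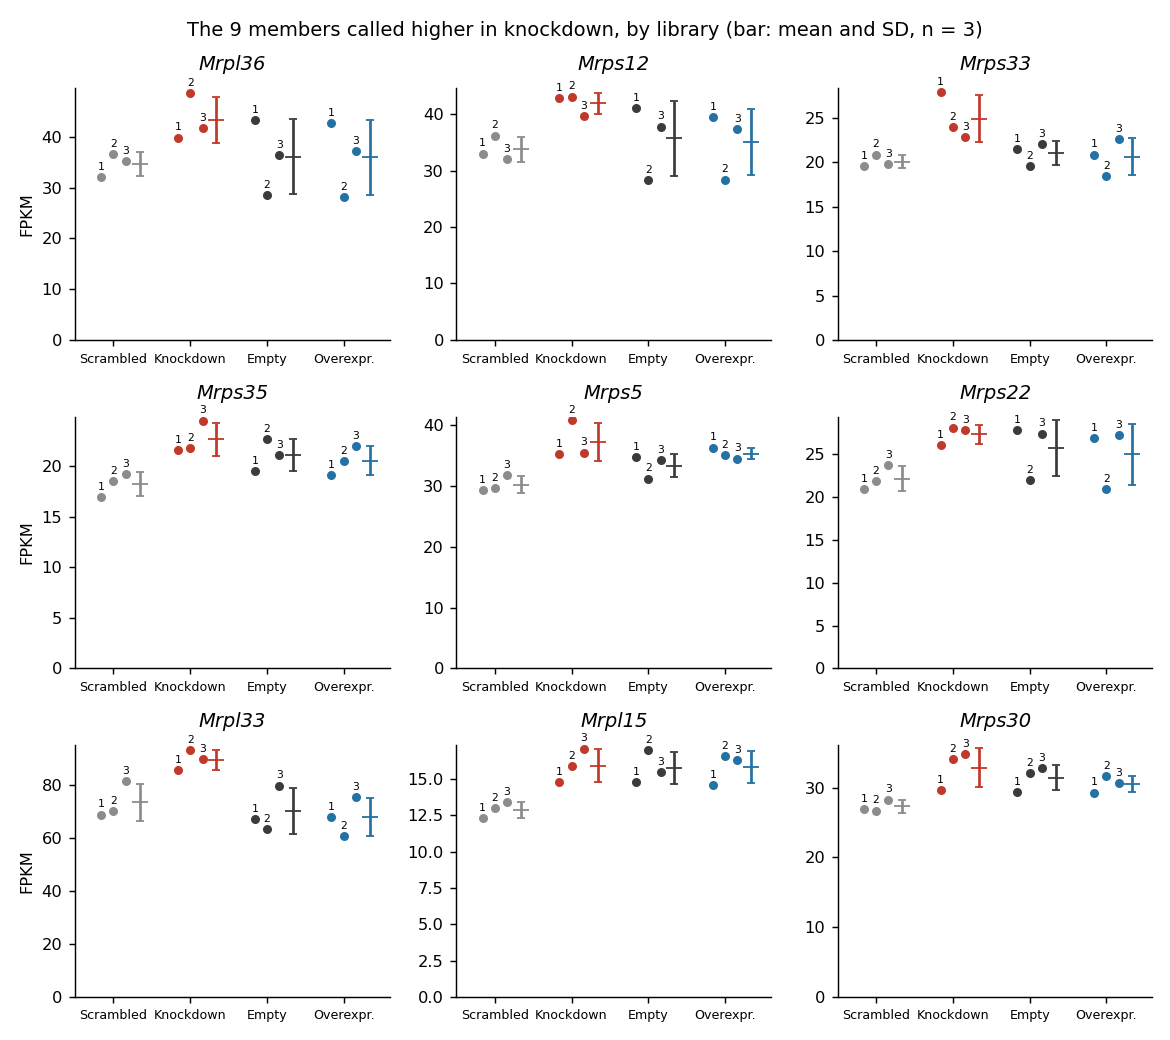
FPKM of the 9 members called higher in knockdown, by library; numbers are library numbers and the bars give each group's mean and SD (n = 3). In every panel the 3 knockdown libraries lie above the 3 scrambled controls. In Mrpl36, Mrpl33, Mrps12, Mrps22 and Mrps33 the libraries numbered 2 of the overexpression experiment lie below the others of that experiment.

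Proteins of the factor-binding stalk and of the exit tunnel had no call in knockdown without the block. For the stalk and the L1 arm, the log2 fold changes were 0.24 for Mrpl10 (limma adjusted p = 0.0824), 0.13 for Mrpl11 (0.252), 0.12 for Mrpl12 (0.450) and 0.12 for Mrpl1 (0.215). At the tunnel exit, Mrpl22 had 0.24 (limma adjusted p = 0.0892), Mrpl45, which holds the ribosome to the inner membrane, 0.20 (0.144), Mrpl23 0.04 (0.816) and Mrpl24 0.00 (0.995). With the library number as a block, 1 of the 4 stalk genes, Mrpl10, was called higher (limma adjusted p = 0.0181), and 2 of the 4 tunnel genes, Mrpl22 (0.0127) and Mrpl45 (0.0242). A pair of members had larger estimates than any called one without passing: Mrps28 at 0.47 (limma adjusted p = 0.0870) and Mrpl38 at 0.37 (0.0880). Both passed with the block (limma adjusted p = 0.0118 and 0.00533). In both, scrambled control 1 was far below the other controls, at 11.8 against 18.9 and 18.3 FPKM for Mrps28 and at 32.0 against 43.0 and 41.8 for Mrpl38. The lowest estimate was that of Mrpl30 at −0.18 (limma adjusted p = 0.130), and Mrps36 had −0.04 (0.794). Between adjusted p of 0.05 and 0.1 lay 13 further members, all 13 of them with positive log2 fold changes.

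The knockdown libraries lay entirely above the controls in 28 members and entirely below in 0, where 30.3% and 15.1% of all genes tested did so. The calls depended on the scaling and on single libraries. After median-of-ratios scaling the median of all genes moved to 0.00, that of the members to 0.075 with 56 of 74 above 0, and the calls became 1 higher (Mrps22, adjusted p = 0.0454) and 1 lower (Mrpl30, adjusted p = 0.0377), beside 11.1% higher and 13.0% lower of all genes. With the library number as a block, 32 members were called higher and 1 (Mrpl30, limma adjusted p = 0.0226) lower, beside 30.6% and 14.7% of all genes, and all 9 members remained among the 32. Leaving out 1 library left 0 calls without scrambled control 1 or knockdown 2, 1 without scrambled control 2 or knockdown 3, 4 without knockdown 1 and 5 without scrambled control 3. Each time, fewer of all genes were called higher than the 1952 of the full fit, though many remained. Part of the loss among the members was thus shared with the other genes.

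**Figure D3:**
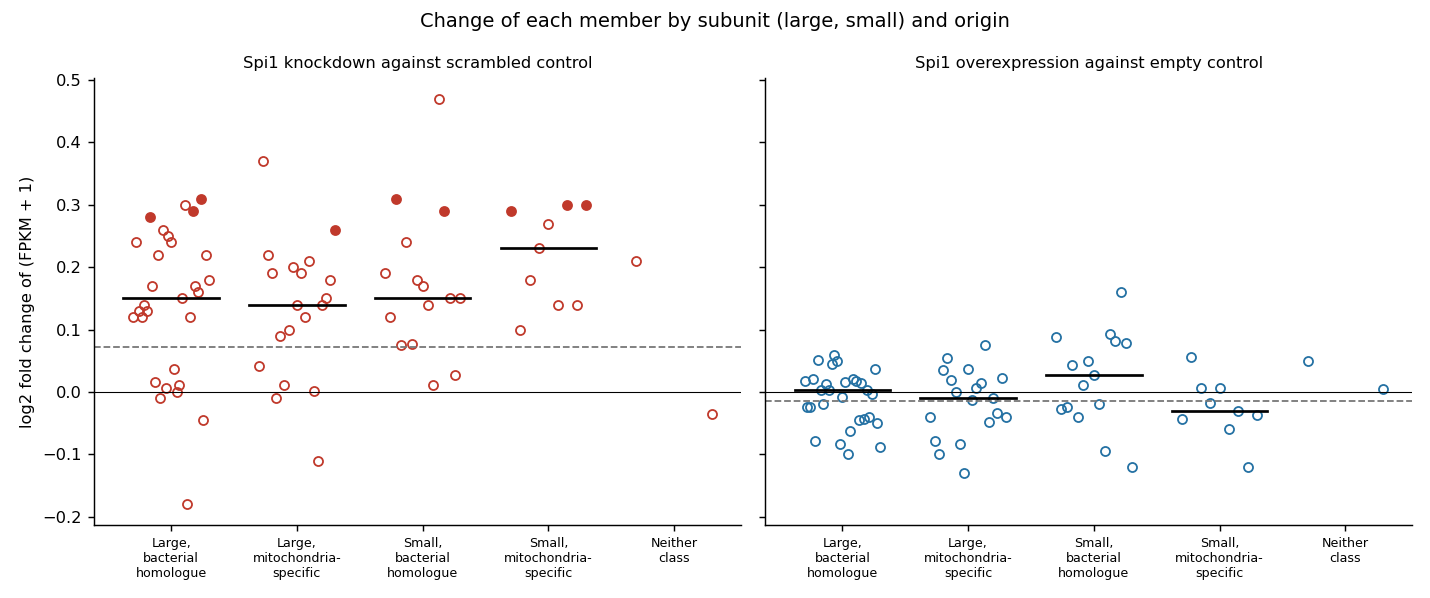
Log2 fold change of (FPKM + 1) of each member by subunit and origin, in knockdown (left) and overexpression (right); filled points passed the adjusted threshold, black bars are class medians and the dashed line is the median of all genes tested. In knockdown the class medians run from 0.142 to 0.226, all above the dashed line at 0.072; in overexpression they lie near 0.

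Spi1 overexpression gave no call among the members, higher or lower, and none among the 11217 genes tested either (0% in each direction by limma with Benjamini-Hochberg adjustment). Spi1 itself was not called, at a log2 fold change of 0.81 (limma unadjusted p = 0.00216). It passed with the library number as a block (limma adjusted p = 0.0357). The test without the block thus missed even the gene that was added, so 0 calls do not show that a response was absent. At an unadjusted p under 0.05 the members counted 0 and all genes 122, or 1.09%. With limma-voom on recovered reads 0 members passed as well, and with the library number as a block 0 members did, while 9 genes of all rose and 4 fell. The median log2 fold change of the members was 0.002, against −0.014 for all genes, with 38 members above 0 and 36 below. The overexpression libraries lay above all empty controls in 0 members and below in 2, beside 1.66% and 2.40% of all genes.

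Those 2 were Mrpl45, at 29.9, 27.9 and 28.0 FPKM without the cDNA against 26.2, 24.8 and 27 with it, and Mrpl39, at 31.9, 31.9 and 33.5 against 30.8, 30.2 and 29.8. In both the gap between the groups was narrow. Mrpl45 had the smallest p of any member at a log2 fold change of −0.13 (limma unadjusted p = 0.148, adjusted p = 1.0), followed by Mrpl39 at −0.10, Mrps24 at −0.09 and Mrps34 at −0.12. The largest positive estimate was 0.16, for Mrps6. Without the block, standard errors over the members ran from 0.074 to 0.331 in this experiment and from 0.0552 to 0.176 in the knockdown experiment.

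The 9 members called in knockdown had log2 fold changes of −0.04 to 0.08 in overexpression, 2 of them positive. The overexpression effect minus the knockdown effect was tested as 1 quantity over the 12 libraries. No member was called in it, higher or lower, where 1.90% of the 11224 genes were called higher and 2.94% lower. At an unadjusted p under 0.05 it was lower in 8 members and higher in 0, beside 14.5% lower of all genes. The smallest p-values were those of Mrps35 at −0.34 (limma adjusted p = 0.140), Mrpl45 at −0.33 (0.142), Mrps30 at −0.30 (0.147) and Mrps33 at −0.33 (0.186). For the 9 the difference ran from −0.34 to −0.21, with limma adjusted p from 0.140 to 0.490. With the library number as a block, 27 members were called lower and 0 higher, beside 28.6% and 12.9% of all genes, and 8 of the 9 were among the 27, all but Mrps5. The 9 were picked by their knockdown effect, which is part of the difference, so negative values among them were favoured in advance. Their count is therefore no separate sign of a response that differs between the experiments.

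Of the 4 groups, the scrambled controls most often held the lowest level of a member. They had the lowest group mean for 52 of the 74 members, the empty controls for 7, knockdown for 4 and overexpression for 11. Summed over the members, FPKM was 2632, 2875 and 2891 for the scrambled controls against 2931, 3172 and 3109 after knockdown. It was 2955, 2809 and 3024 without the cDNA against 2992, 2778 and 2974 with it. Scrambled control 1 was the lowest of all 12 libraries, and it was the lowest of the 3 scrambled controls in 59 members. The median member in the scrambled controls was 0.09 below the empty controls on the log2 scale, with 61 of 74 below, against 0.04 below for all genes. In knockdown it was 0.07 above the empty controls (0.03 for all genes). For 6 of the 9 called members the mean of the empty controls was above every scrambled control. The 9 were called for knockdown levels above those same scrambled controls, which favours such a count, and it was not made over the other genes. The experiments were deposited as separate tables and share no library, so these levels set side by side carry no test, and experiment and control type cannot be told apart.

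**Figure D4:**
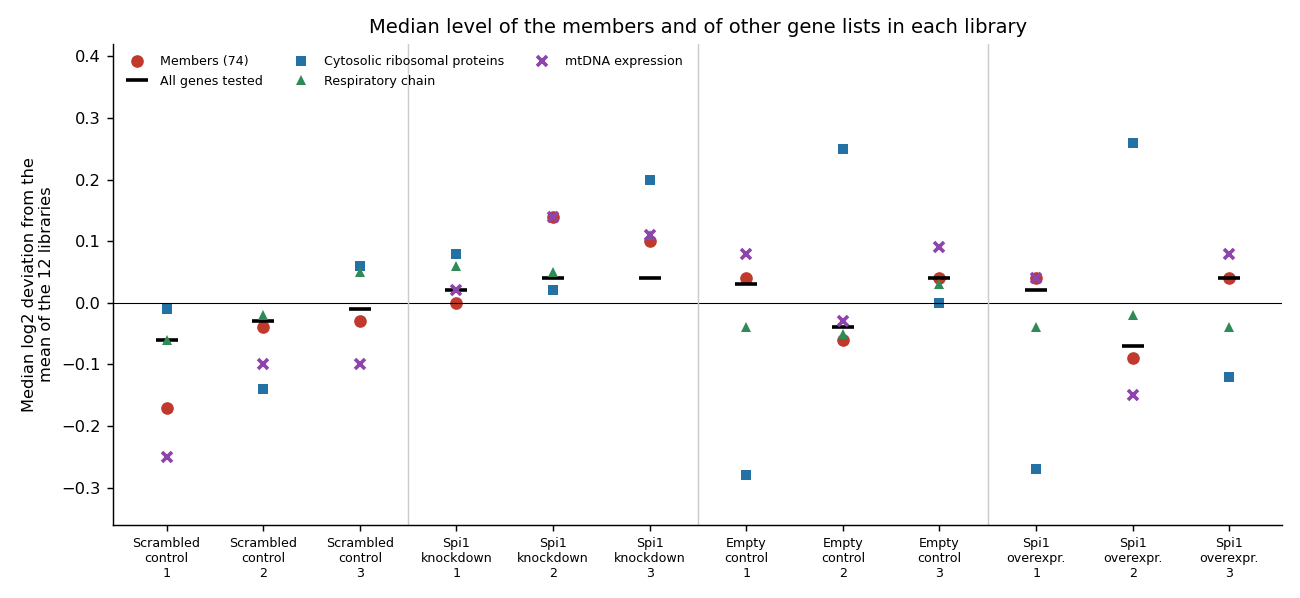
Median log2 deviation from the mean of the 12 libraries, per library, for the 74 members, all genes tested and 3 other gene lists. The members are lowest in scrambled control 1 (−0.17) and highest in knockdown 2 (0.14), while the cytosolic ribosomal proteins follow another order, with their highest values in the libraries numbered 2 of the overexpression experiment.

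The libraries numbered 2 of the overexpression experiment stood apart from those numbered 1 and 3, in the empty control and in overexpression alike. Mrpl20, a core protein of the large subunit, measured 74.9, 36.7 and 60.0 FPKM for empty controls 1 to 3 and 76.8, 38.9 and 61.4 for overexpression 1 to 3. Mrps6, a small-subunit protein with a bacterial homologue, was at 44.3, 24.8 and 36.3 and at 47.5, 28.5 and 41.3. Both were lowest in library 2 of each group. Mrpl23 was at 27.1, 44.3 and 31.3 and at 28.5, 45.0 and 30.3 FPKM, and Mrpl24 at 43.7, 69.7 and 50.6 and at 39.8, 66.7 and 47.3. These 2 tunnel proteins went the other way. Number 2 minus numbers 1 and 3 ran from −0.83 (Mrpl20) to 0.60 (Mrpl23) on the log2 scale, and both extremes exceeded every knockdown or overexpression estimate of a member. Its median was −0.13 over the members and −0.09 over all genes. In 37 members both number 2 libraries were below the other 4 and in 12 above, or 50% and 16.2%, where all genes gave 41.4% and 19.5%. With both left aside, 0 members were called in overexpression and the median was 0.011.

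In the knockdown experiment the libraries numbered 2 leaned the other way, with a median of 0.09 and a range of −0.37 (Mrps15) to 0.31 (Mrps6). Across the 74 members, which are not independent replicates and share their libraries, the number 2 differences of the experiments had a Pearson r of −0.58 and a Spearman rho of −0.59. Over all 11224 genes the values were −0.46 and −0.57. Members that were low in number 2 of the overexpression experiment and high in number 2 of the knockdown experiment counted 49. Taken singly, 53 members were below 0 in the overexpression experiment and only 15 in the knockdown experiment, which favours such a count. It was not made over the other genes. The labels say nothing of what a number shares.

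**Figure D5:**
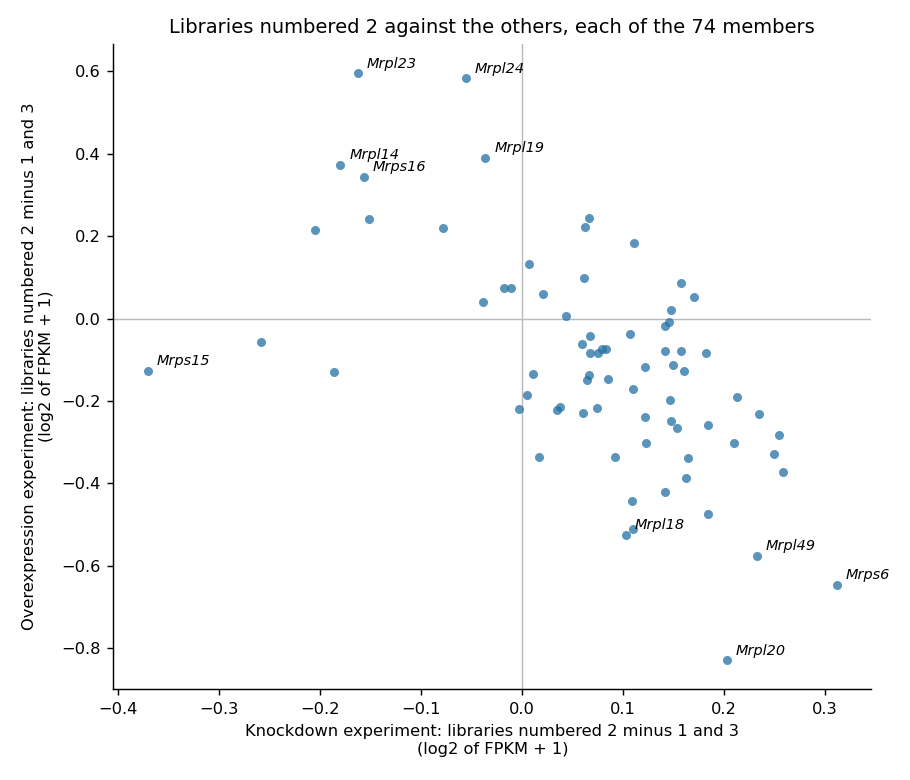
Difference between the libraries numbered 2 and those numbered 1 and 3, on log2 of (FPKM + 1), in the knockdown experiment (horizontal) and the overexpression experiment (vertical); each point is 1 of the 74 members. Mrpl20 and Mrps6 are at the lower right and Mrpl23 and Mrpl24 at the upper left.

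Other proteins of the mitochondrial ribosome and the machinery around it were read beside the members in knockdown. Of 9 tested ribosome proteins outside the symbol rule 2 rose and 0 fell. Dap3, a GTP-binding protein of the small subunit, went from 15.2, 15.0 and 15.4 to 18.8, 19.4 and 21.4 FPKM (log2 fold change 0.37; limma adjusted p = 0.0101), and Chchd1 from 51.7, 51.5 and 54.3 to 65.2, 63.1 and 62.7 (0.27; limma adjusted p = 0.0157). Of 23 assembly factors 4 rose and 0 fell, led by the GTPase Noa1 at 12.9, 13.5 and 14.1 against 19.3, 19.8 and 19.3 FPKM (0.50; limma adjusted p = 0.00325). Of 17 translation factors 2 rose and 0 fell: Tsfm, the exchange factor for the elongation factor Tu (0.49; limma adjusted p = 0.00795), and Guf1 (0.45; limma adjusted p = 0.00462). The shares of these lists called higher, 22.2%, 17.4% and 11.8%, stand beside 17.4% of all genes. With the library number as a block, the 3 lists had 6, 9 and 5 genes called higher and 0, 1 and 0 lower, beside 30.6% and 14.7% of all genes. With median-of-ratios scaling they had 2 higher each, and 1 translation factor was lower, beside 11.1% and 13.0% of all genes.

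Mitochondrial tRNA synthetases and related enzymes had 8 of 20 genes called higher (40.0%) and 0 lower, with a median of 0.268. Qrsl1, a subunit of the enzyme that amidates the glutamine tRNA, went from 5.77, 6.38 and 6.18 to 7.74, 7.94 and 7.83 FPKM (0.31; limma adjusted p = 0.0117). Genes of mitochondrial DNA maintenance and transcription had 8 of 16 called higher (50%) and 0 lower, with a median of 0.270. Among them Peo1, the helicase of the mitochondrial replication fork now named Twnk, went from 14.9, 15.3 and 16.4 to 20.7, 22.4 and 22.5 FPKM (0.47; limma adjusted p = 0.00483). Tfam, which packages mitochondrial DNA and starts its transcription, rose by 0.29 (limma adjusted p = 0.0441). That call was lost with median-of-ratios scaling, at 0.21 (limma adjusted p = 0.0867). The polymerase gene Polrmt had 0.22 (limma adjusted p = 0.0995; 0.0193 with the block). With that scaling 6 genes of each of these lists were higher and 0 lower, and with the block 15 of the 20 and 10 of the 16. Of all genes tested, 11.1% were higher and 13.0% lower with the scaling, and 30.6% and 14.7% with the block. The same shares stand beside the other lists of this paragraph. Import translocases had 4 higher and 0 lower of 22, which became 15 and 1 with the block and 2 and 1 with the scaling. Respiratory chain subunits, many of which are assembled with the products of the mitochondrial ribosome, had 3 higher and 2 lower of 74, with a median of 0.088, beside 17.4% and 8.86% of all genes. The balance of these calls turned with the setting, to 0 higher and 5 lower with median-of-ratios scaling (median 0.007) and 19 higher and 4 lower with the block. Cytosolic ribosomal proteins had 2 higher and 1 lower of 79, with a median of 0.138. They had 38 higher and 2 lower with the block, and 2 of each with the scaling.

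Of 10 tested regulators of mitochondrial gene expression 2 rose and 1 fell, beside 17.4% and 8.86% of all genes. With the block 4 rose and 1 fell, beside 30.6% and 14.7%. Gabpa, the DNA-binding subunit of GABP, itself an ETS factor, went from 11.5, 10.5 and 11.9 to 14.8, 14.7 and 15.4 FPKM (0.38 ± 0.0667, SE, n = 3 and 3; limma adjusted p = 0.00882). In the overexpression experiment Gabpa was at 14.5, 13.7 and 14.9 without the cDNA against 13.8, 13.6 and 14.8 with it, close to its knockdown level. Nrf1 had a log2 fold change of 0.08 (limma adjusted p = 0.390). Myc rose by 0.31 at a level under 2 FPKM (limma adjusted p = 0.0459; 0.0816 with median-of-ratios scaling), and the nuclear receptor gene Esrra fell by 0.25 (limma adjusted p = 0.0259). In overexpression none of these lists held a call.

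Proliferation genes moved with the same contrast by far more. All 25 of the G2 and mitosis list rose in knockdown, with a median of 0.956, and 15 of 22 of the G1/S list, with a median of 0.534, while 7 of 11 tested macrophage markers fell and 1 rose. Of all genes tested 17.4% rose and 8.86% fell. With the library number as a block, 25 and 19 genes of the proliferation lists rose, beside 30.6% of all genes. Of the macrophage markers 8 then fell and 1 rose, beside 14.7% of all genes that fell. Per library, the G2 and mitosis median was lowest in scrambled control 1 at −0.86, where the members were also lowest, and lay at −0.70 and −0.32 in the other scrambled controls against 0.27 to 0.39 in knockdown. The part of these shifts in the members' values was not tested.

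Many members share a start region with another gene. A protein-coding gene on the other strand was counted as a neighbour where the starts lay within 1000 bases of each other. By GENCODE M21, on the build of the files, 31 of the 74 (41.9%) had one, against 1844 of 9922 tested protein-coding genes (18.6%). In some pairs, such as Mrpl54 and Apba3, the genes point away from each other. In others, such as Mrpl18 and Tcp1, they overlap at their starts. The median distance between the starts was 153 bases, from 26 (Mrpl54 and Apba3) to 935 (Mrpl41 and Pnpla7). Mrpl46 and Mrps11 are each other's neighbour and overlap, with 412 bases between their starts. Of 29 such neighbours tested in knockdown 7 rose and 3 fell, beside 17.4% and 8.86% of all genes tested. In only 1 pair did both genes rise: Mrps12 and Sars2, the mitochondrial serine tRNA synthetase, whose starts lie 172 bases apart. Sars2 went from 4.96, 5.71 and 5.41 to 6.99, 7.26 and 7.90 FPKM (0.40; limma adjusted p = 0.01).

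Several neighbours changed far more than the member beside them. Ncapd2, a condensin subunit, lies 100 bases from Mrpl51 and went from 11.3, 12.5 and 16.5 to 27.4, 24.0 and 25.8 FPKM (0.91; limma adjusted p = 0.00485), while Mrpl51 was at 26.6, 32.3 and 30.9 against 26.9, 31.6 and 31.3 (0.00; 0.993). Ska3, a kinetochore gene 49 bases from Mrpl57, had 0.86 (limma adjusted p = 0.00488) beside 0.21 (0.0974; 0.0335 with the block) for Mrpl57. Downward, Pnpla7 fell by 0.80 (limma adjusted p = 0.00193) beside −0.01 for Mrpl41, Klc4 by 0.69 (0.00204) beside 0.26 (0.0590; 0.0146 with the block) for Mrpl2, and Gga3 by 0.33 (0.0227) beside 0.03 for Mrps7. Peo1, 779 bases from the start of Mrpl43, had 0.47, while Mrpl43 was at 94.8, 104 and 102 FPKM against 98.3, 104 and 101 (0.01; limma adjusted p = 0.904). Exons of 30 members overlap those of another gene, in 7 of them over more than 25% of the exon bases, namely Mrps25, Mrps34, Mrpl43, Mrpl19, Mrpl24, Mrpl53 and Mrps6, so reads of these members may include the overlapping gene's. The members lie on 17 chromosomes, 10 of them on chromosome 11 and 0 on the X.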

How the data were processed

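The authors deposited 2 tables of FPKM with 24062 entries each, 1 per experiment; per the labels' protocols, polyA RNA was prepared with a TruSeq v2 kit and read as 100-base single reads on a HiSeq 2500. Build mm10 and the tools STAR 2.5.2a, featureCounts, DESeq2 1.14, CASAVA 1.8.2 and bcl2fastq are named in the submitters' processing notes, without their roles. The unit was read from the values: 17835 of 17838 genes above 0 gave whole reads (within 0.001) from the steps of the FPKM values, and the 2141 low genes used gave whole lengths within 0.01 base in 100% of cases. The 4 entries of repeated symbols were left out. FPKM scales each library by its own total, so a few abundant genes can shift the rest.

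Each experiment was tested with limma 3.58.1 (R 4.3.3) on log2(FPKM + 1), for genes whose mean reached 1 FPKM, adjusted by Benjamini-Hochberg over all genes tested at 0.05. Fold changes are on that scale and understate low genes. The procedure was also run on simulated data, with noise drawn independently for each library. Those data hold no shift shared by same-numbered libraries, so they do not test how the fits handle one. Groups came from the treatment labels and library numbers from the titles. Same-numbered libraries deviated together, with r of 0.397, 0.540 and 0.345 in the knockdown experiment and 0.791, 0.845 and 0.513 in the other, so the numbers were taken to pair libraries. Blocked values or counts are given for members and gene lists where they change a call, but not for the neighbouring genes. Members and gene lists were chosen with earlier results of these data known, so no p is given over a list. Named members were the called ones without overlap, the 4 with the smallest p where fewer than 4 were called, the 3 highest and 3 lowest, and a set fixed by role; Mrps28, Mrpl38, Mrpl30, Mrpl20, Mrps6, Mrps15, Mrpl51, Mrpl57, Mrpl41 and Mrpl2 were chosen after their values were seen. A result on 1 gene is not reported here. Gene positions are from GENCODE M21 and start windows from RefSeq.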

Additional observations from a re-analysis of the deposited data

Results flagged for a closer look

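Several genes outside the symbol rule had an effect of overexpression that differed from that of knockdown, by limma on the difference over the 12 libraries with Benjamini-Hochberg adjustment. For Spi1 the difference was 2.56 on the log2 scale (adjusted p = 0.000331). Further ones are Gabpa at −0.41 (adjusted p = 0.0387; 0.0561 with median-of-ratios scaling), the assembly factor Noa1 at −0.55 (0.0218) and the helicase gene Peo1 at −0.56 (0.0224). In these 3 the knockdown effect was positive, from 0.38 to 0.50, and the overexpression effect lay between −0.09 and −0.03. No member was among them.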

How the results depend on the processing

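The members' median log2 fold change in knockdown kept its sign under every setting tried, from 0.075 with median-of-ratios scaling to 0.20 without knockdown 1, and in overexpression it stayed within 0.04 of 0. The 9 higher calls in knockdown became 1 with median-of-ratios scaling, 4 with the 12 libraries in 1 fit, 16 with limma-voom on recovered reads and 1 with both libraries numbered 1 left aside, and ran from 0 to 5 when 1 library was left out; lower calls were 1 with that scaling. With the replicate block they were 32 higher and 1 lower, and with scaling and block together 14 higher and 2 lower. In the difference of effects, the block gave 27 lower, beside 28.6% of all genes, and scaling with the block 2 higher and 12 lower. No share of all genes is given for that last setting. No other count of called members changed under the block, and in overexpression all settings gave 0. All genes called higher in knockdown went from 1952 to 3435 with the block, 1248 with median-of-ratios scaling and 1053 in the fit of 12 libraries. Their number rose with limma-voom. It fell with both libraries numbered 1 left aside and with any 1 library of the knockdown experiment left out. The fits on recovered reads, scaling with the block, and leaving a pair of libraries aside were chosen after seeing the data. The causes were not tested. Among the values of single named genes, 1759 kept their side of the threshold without a called value changing sign, 76 lost and 48 gained the threshold, and 17 that passed neither as reported nor under the alternative moved by more than the spread. Estimates near 0 that passed no test did change sign, such as Mrpl20 (0.01 to −0.07), Mrpl23 (0.04 to −0.04) and Mrpl43 (0.01 to −0.07) with median-of-ratios scaling in knockdown. Groups held 3 libraries each, which limits precision. SEs over the members ran from 0.0552 to 0.331 without the block, and these include shifts that same-numbered libraries shared.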
